A study of Homo sapiens with 16 samples.

Results

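The chaperones examined here help newly made proteins to fold in the cytosol and in the mitochondrial matrix. They were chosen by gene symbol: CCT3, CCT4 and CCT7, which are subunits of the cytosolic chaperonin CCT; PFDN2, a subunit of prefoldin; HSPD1 (HSP60) and HSPE1 (HSP10), the mitochondrial chaperonin and its lid; and DNAJB4, a J-domain co-chaperone of HSP70. These 7 genes were chosen with earlier results of these data known. Of the 7, 6 were listed by symbol and had counts in both assays. In all, 19044 transcripts with a coding sequence were joined between the assays and 10970 were tested. HSPE1 was not among the 1998 symbols that could be read from the study's list, which was held only in part. A readthrough transcript named HSPE1-MOB4 was listed with Ribo-Seq counts only, and its values are given apart from those of the members.

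Ribosome-protected fragments (RPFs, measured by Ribo-Seq) and mRNA (mRNA-Seq) were counted in HEK293T cells, an established human embryonic kidney line. Cells were left untreated, or received for 1 hr tunicamycin (Tm, 1 µg/ml), Tm with ISRIB (200 nM), or ISRIB alone (200 nM). Each of the 4 treatments had 2 lysates, lettered a and b, and each lysate was split between the assays, which gives 16 libraries. All samples were of the same line, with no genetic change between groups, and all cells received cycloheximide before lysis. Tm blocks N-linked glycosylation in the endoplasmic reticulum (ER) and so causes ER stress, which leads to phosphorylation of the translation initiation factor eIF2α. ISRIB is a small molecule that blocks the effects of this phosphorylation on translation. The joined counts summed to between 3001612 and 11469150 per Ribo-Seq library and between 8466193 and 24499266 per mRNA-Seq library. The Tm lysates gave the shallowest pair of Ribo-Seq libraries, with 4172745 and 3001612 counts.

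CCT, also called TRiC, is a barrel of stacked rings built from distinct subunits, and it folds actin, tubulin and other cytosolic proteins by enclosing them and hydrolysing ATP. Prefoldin is a jellyfish-shaped complex that catches nascent actin and tubulin and passes them to CCT. In mitochondria HSP60 forms a barrel of its own that HSP10 caps, and J-domain proteins such as DNAJB4 deliver clients to HSP70 and stimulate its ATPase. These chaperones act outside the ER, the compartment in which Tm blocks glycosylation.

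The sequences around the start codons are shown first, since initiation at these codons is the step that eIF2 serves. Each line gives 9 bases before the AUG, the start codon in capitals (as ATG), and 12 bases after it, 5′ to 3′, from the GENCODE 29 annotation of GRCh38.
CCT3: cgcgtcgccATGatgggccatcgt
CCT4: gagtttgccATGcccgagaatgtg
CCT7: gcttccaaaATGatgcccacacca
PFDN2: gcggcgaagATGgcggagaacagc
HSPD1: agccgagaaATGcttcggttaccc
HSPE1: gagggagtaATGgcaggacaagcg
DNAJB4: gcattcgaaATGgggaaagactat
A purine stood at the third base before the AUG in 7 of 7 members, against 81.4% of the 52703 annotated transcripts with such a window. A G directly after the AUG was present in 3 of 7 members (PFDN2, HSPE1 and DNAJB4), against 48.0% of all transcripts, and both features together in the same 3 members, against 39.4%. These letters describe the annotation and say nothing of how often each codon is used.

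In that annotation CCT3 lies on chromosome 1 at chr1:156308968-156367873 (minus strand), CCT4 at chr2:61868089-61888804 (minus) and CCT7 at chr2:73233420-73253021 (plus). PFDN2 lies at chr1:161100556-161118111 (minus) and DNAJB4 at chr1:77979175-78017964 (plus). HSPD1, at chr2:197486581-197516737 (minus), and HSPE1, at chr2:197499994-197503457 (plus), stand head to head and overlap as annotated genes. The counts were made over coding sequences on the submitters' hg19 build, and the positions here serve only to place the genes.

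RefSeq promoter windows (250 bases before to 50 bases after a transcription start, GRCh38.p14) were found for 6 of the 7 members, in 9 windows; PFDN2 had none. The heat shock element, the site that the heat shock factor HSF1 binds, was searched as 3 alternating GAA and TTC triplets with 2 bases between neighbours, starting with either triplet, which covers both strands. It was found in 1 of the 9 windows, that of HSPD1 upstream of the start at position 197499840 of chromosome 2, and in 172 of all 35116 windows (0.49%). It is shown, with 30 bases on the minus strand of chr2:197500061-197500090, because no other member window held the element. A link to the footprints or mRNA of HSPD1 was not tested. The capitals mark 2 overlapping matches, 18 bases that lie 245 to 228 bases before that start.
HSPD1: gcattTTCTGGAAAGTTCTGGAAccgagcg
A second HSPD1 window, at a start at position 197500274, held no such run of letters. The HSPE1 window reached from its start at position 197500379 back to 197500129 and so ended short of these bases. They lie between the HSPD1 start at position 197499840 and that of HSPE1. The search therefore does not set HSPD1 apart from HSPE1. The match is a description of the sequence and not evidence of binding.

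Levels were compared between genes only per length, as CPM (counts per 1000000 of the TMM-scaled library total) per 1000 counted codons. On this scale HSPD1 had the highest RPF level of the 6 members, from 3533 to 4303 with a median of 4012 over the 8 Ribo-Seq libraries. CCT3 followed, from 2625 to 2906 with a median of 2843. CCT7 ranged from 2439.7 to 2770.0 with a median of 2684, and CCT4 from 2303 to 2502 with a median of 2393. The ranges of CCT3 and CCT7 overlapped, and so did those of CCT7 and CCT4, whereas HSPD1 lay above all libraries of the CCT subunits. PFDN2 ranged from 717 to 824 with a median of 744, and DNAJB4 from 19.98 to 31.1 with a median of 27.5. Among all tested transcripts the untreated RPF level had a median of 62.6, so that HSPD1, the CCT subunits and PFDN2 lay between the 93.4 and 98.6 percentiles and DNAJB4 at the 30.7 percentile.

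The mRNA levels per 1000 codons had the same top and bottom. HSPD1 ranged from 4498 to 5448 with a median of 4952, and CCT3 from 2603 to 3154 with a median of 2942. CCT4 ranged from 2199 to 2661 with a median of 2484, overlapping CCT3, and CCT7 from 2022 to 2318 with a median of 2229, overlapping CCT4. PFDN2 ranged from 336 to 451 with a median of 399, and DNAJB4 from 39.5 to 49.0 with a median of 44.4. CCT7 and CCT4 stood in opposite orders in the assays in every lysate: the ratio of CCT7 to CCT4 was between 1.05 and 1.19 in RPFs per codon and between 0.851 and 0.959 in mRNA per codon. In RPFs per codon the ratio of CCT3 to CCT4 was between 1.12 and 1.21 and that of CCT3 to CCT7 between 1.00 and 1.15. These ratios are descriptions over 8 lysates. Sequence-dependent recovery of fragments and the choice of transcript were not tested.

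Translational efficiency (TE) was taken as the log2 ratio of RPF to mRNA, both in CPM, within each lysate. PFDN2 had the highest TE, 1.19 and 1.03 in the untreated lysates, and 0.72 to 1.29 over all 8. CCT7 followed with 0.28 and 0.25 in the untreated lysates, then CCT3 with 0.13 and 0.07 and CCT4 with 0.01 and -0.06. HSPD1 had -0.34 and -0.41, and DNAJB4 -0.60 and -0.64. PFDN2 lay above every other member in all lysates, whereas the ranges of CCT3 and CCT4 overlapped. Among all tested transcripts the untreated median was 0.03, and the members lay between the 27.6 percentile (DNAJB4) and the 81.9 percentile (PFDN2). PFDN2 has the shortest coding sequence of the 6, with 135 counted codons against 318 to 554, and the part of length in its TE was not tested.

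**Figure D1:**
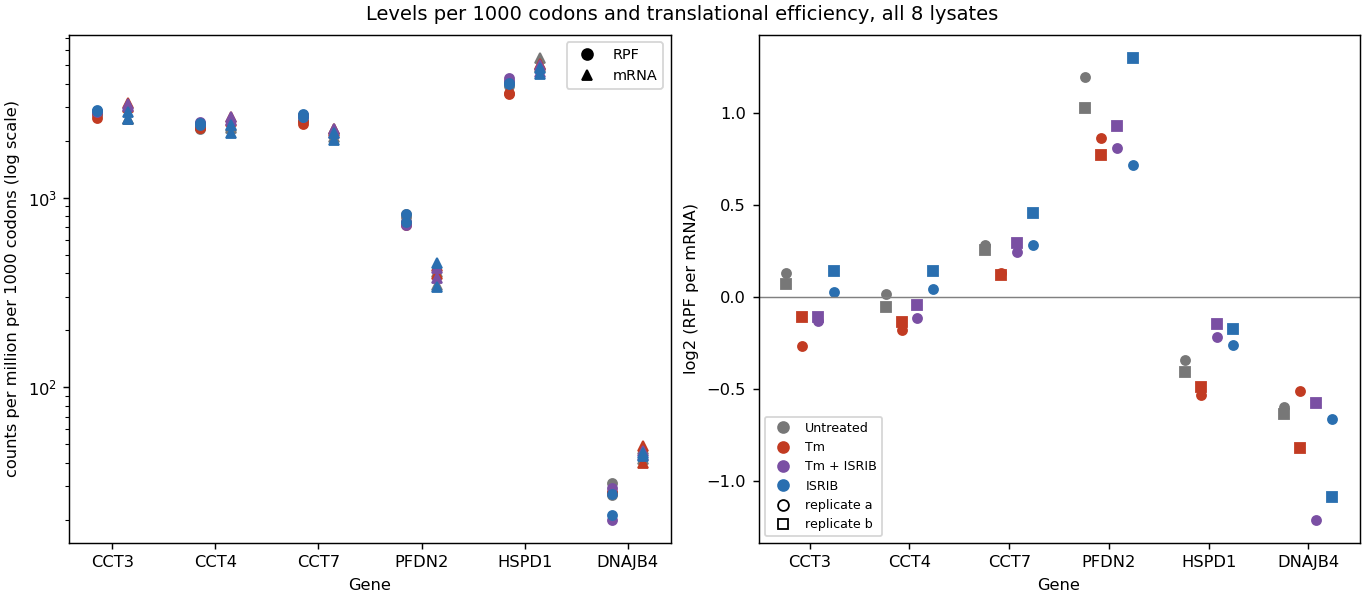
Levels of the 6 listed chaperones in every lysate. The left panel gives RPF (circles) and mRNA (triangles) in CPM per 1000 codons on a log axis, and the right panel log2 of RPF per mRNA, with circles for replicate a and squares for replicate b and colours for treatments. HSPD1 has the highest and DNAJB4 the lowest levels, and PFDN2 the highest efficiency, between 0.72 and 1.29.

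The first comparison asked how ER stress changed the chaperones within 1 hr. In Tm-treated cells the RPFs of HSPD1 fell, and those of the other listed members did not pass the test. HSPD1 had 2144 and 2271 CPM in the untreated libraries and 1957 and 1969.7 CPM with Tm. Both Tm libraries were below both untreated libraries. The means were 2207 ± 89.8 and 1963 ± 8.94 CPM (SD, n = 2), a log2 fold change of -0.17 ± 0.06 SE, adjusted p = 0.076 by the quasi-likelihood test of edgeR, with p-values adjusted by Benjamini-Hochberg over 10970 transcripts. The same test stands behind every change below unless another is named. At the same false discovery rate (FDR) of 0.1, 1 of 6 members was called, against 13.5% of all transcripts. Without either Tm library (where 6.98% and 5.81% of all transcripts were called) or without untreated replicate b the call was lost (adjusted p = 0.279, 0.259 and 0.198), as it was under total-count scaling (-0.12, adjusted p = 0.187) and in a fit to the 2 groups alone (-0.16, adjusted p = 0.222).

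None of the CCT subunits passed the test in footprints. CCT3 had 1497 and 1444 CPM untreated and 1381 and 1478 CPM with Tm. CCT4 had 1226 and 1198 and 1221 and 1208 CPM. CCT7 had 1329 and 1436 and 1328 and 1278 CPM. The groups overlapped for CCT3 and CCT4. Those of CCT7 did not, by a margin under 1 CPM, and its log2 fold change was -0.08 ± 0.06 SE, adjusted p = 0.447. PFDN2 had 106 and 111 CPM untreated and 96.7 and 100.3 CPM with Tm, and its groups did not overlap, but the change of -0.15 ± 0.09 SE, adjusted p = 0.342 did not pass. DNAJB4 had 9.89 and 8.58 CPM untreated and 8.84 and 8.82 CPM with Tm, from 27 to 96 raw counts over all 8 libraries, so that a change as small as that of HSPD1 was not detectable at this depth. Over the 6 members the median RPF change was -0.07, against -0.01 over all transcripts; 5 of 6 estimates were below 0, and 3 of 6 under total-count scaling. RPFs are relative to the other transcripts of a library, so an overall rise or fall of protein synthesis is not seen in them. Nor can such library-scaled values show the number of cells or the RNA per cell.

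**Figure D2:**
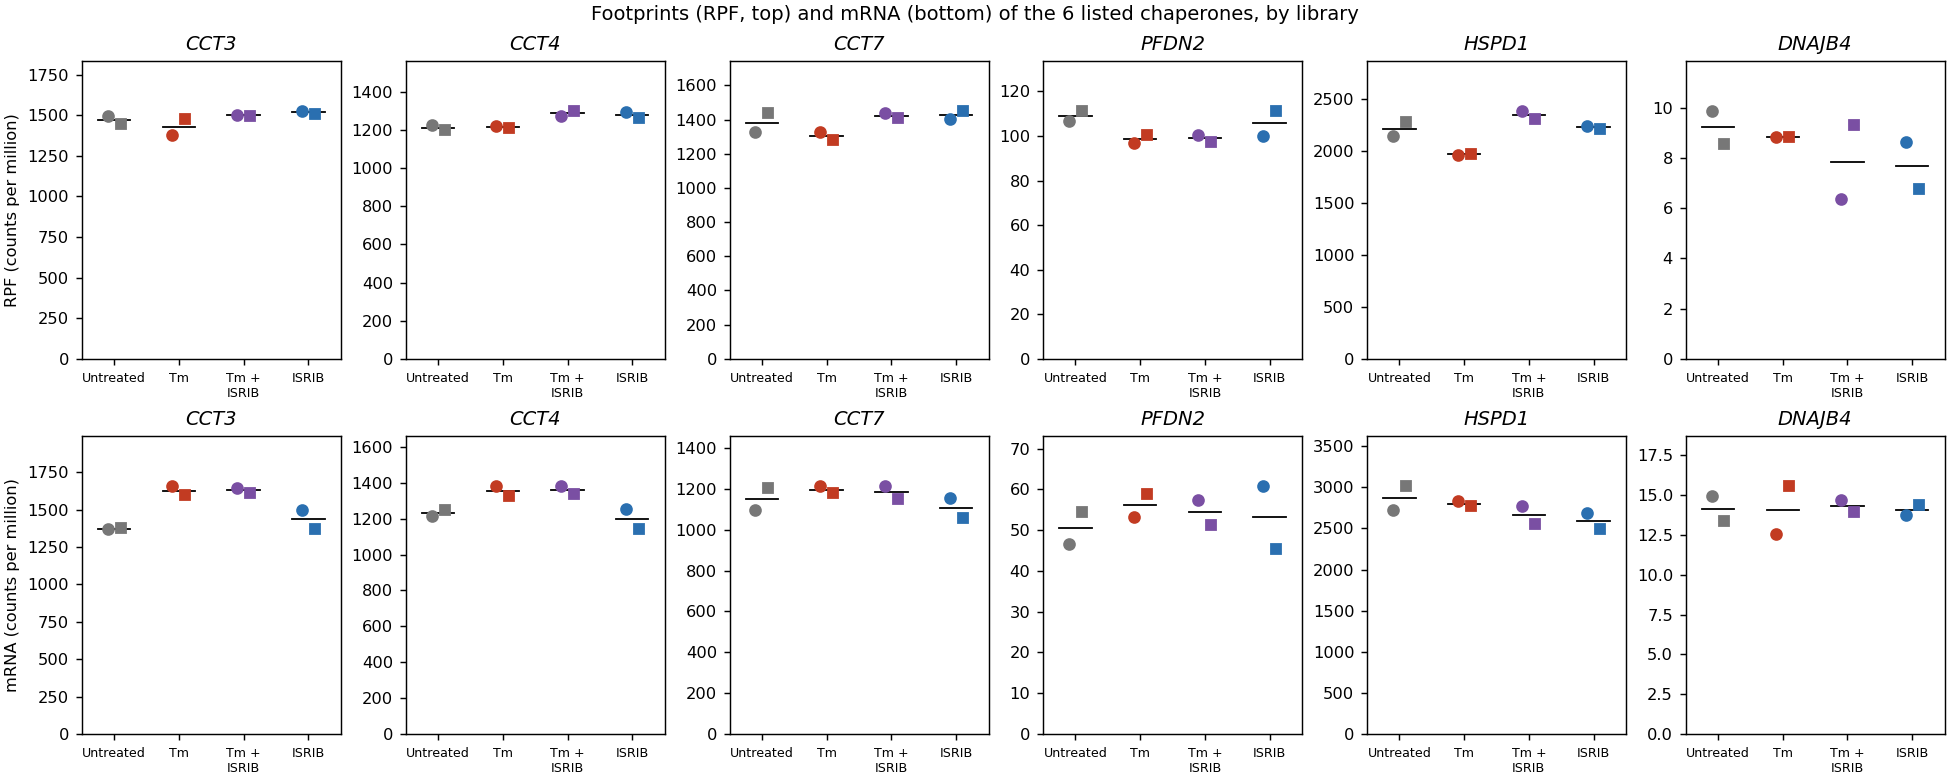
RPF (top row) and mRNA (bottom row) of the 6 listed chaperones in CPM, in every library. Circles are replicate a, squares replicate b and lines the means of each treatment. HSPD1 RPFs sit at 1957 and 1969.7 with Tm, below the other 6 libraries, and CCT3 mRNA is higher in the 4 libraries of cells given Tm than in the other 4.

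The mRNA of CCT3 rose with Tm, from 1369 and 1376 CPM untreated to 1659 and 1595 CPM. The Tm libraries lay above both untreated libraries, at means of 1627 ± 45.3 and 1373 ± 5.19 CPM (SD, n = 2), and the log2 fold change was 0.25 ± 0.07 SE, adjusted p = 0.0807. This was 1 of 6 members called, against 11.0% of all transcripts. CCT4 mRNA moved from 1215 and 1246 to 1384 and 1327 CPM, again without overlap, but its change of 0.14 ± 0.07 SE, adjusted p = 0.252 did not pass. CCT7 had 1095 and 1204 CPM untreated and 1214 and 1178 with Tm, and these overlapped. HSPD1 mRNA, 2718 and 3018 CPM untreated and 2830.3 and 2769 with Tm, overlapped too. PFDN2 had 46.7 and 54.6 CPM untreated and 53.3 and 58.9 with Tm, and DNAJB4 14.9 and 13.3 and 12.6 and 15.6. With 1 of the 4 lysates compared left out, the CCT3 estimate lay between 0.22 and 0.27, and CCT3 was not called in any of these fits. Each of them leaves a lone library in 1 group, and why the call was lost was not tested. In a fit to these groups alone CCT4 also passed (0.14, adjusted p = 0.0803), where 28.8% of all transcripts did.

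The TE of CCT3 fell with Tm, as its mRNA rose and its footprints did not pass the test. The log2 TE of CCT3 was 0.13 and 0.07 in the untreated lysates and -0.26 and -0.11 with Tm, without overlap, and the change was -0.29 ± 0.10 SE, adjusted p = 0.0617. This was 1 of 6 members called, against 15.9% of all transcripts. PFDN2 went from 1.19 and 1.03 to 0.86 and 0.77, an estimate of similar size with a larger error (-0.30 ± 0.16 SE, adjusted p = 0.252). CCT4 went from 0.01 and -0.06 to -0.18 and -0.14, CCT7 from 0.28 and 0.25 to 0.13 and 0.12, and HSPD1 from -0.34 and -0.41 to -0.53 and -0.49; none of these passed, with estimates of -0.14 ± 0.09 SE, -0.14 ± 0.10 SE and -0.13 ± 0.10 SE. All 6 estimates were below 0 (5 of 6 under total-count scaling), with a median of -0.14 against -0.00 over all transcripts. TE is made from the same libraries as the RPF and mRNA changes, and is not a separate measurement. The CCT3 call was lost without any of the 4 lysates (adjusted p from 0.132 to 0.41; 4.78% to 9.4% of all transcripts called) and under total-count scaling (-0.19, adjusted p = 0.171).

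**Figure D3:**
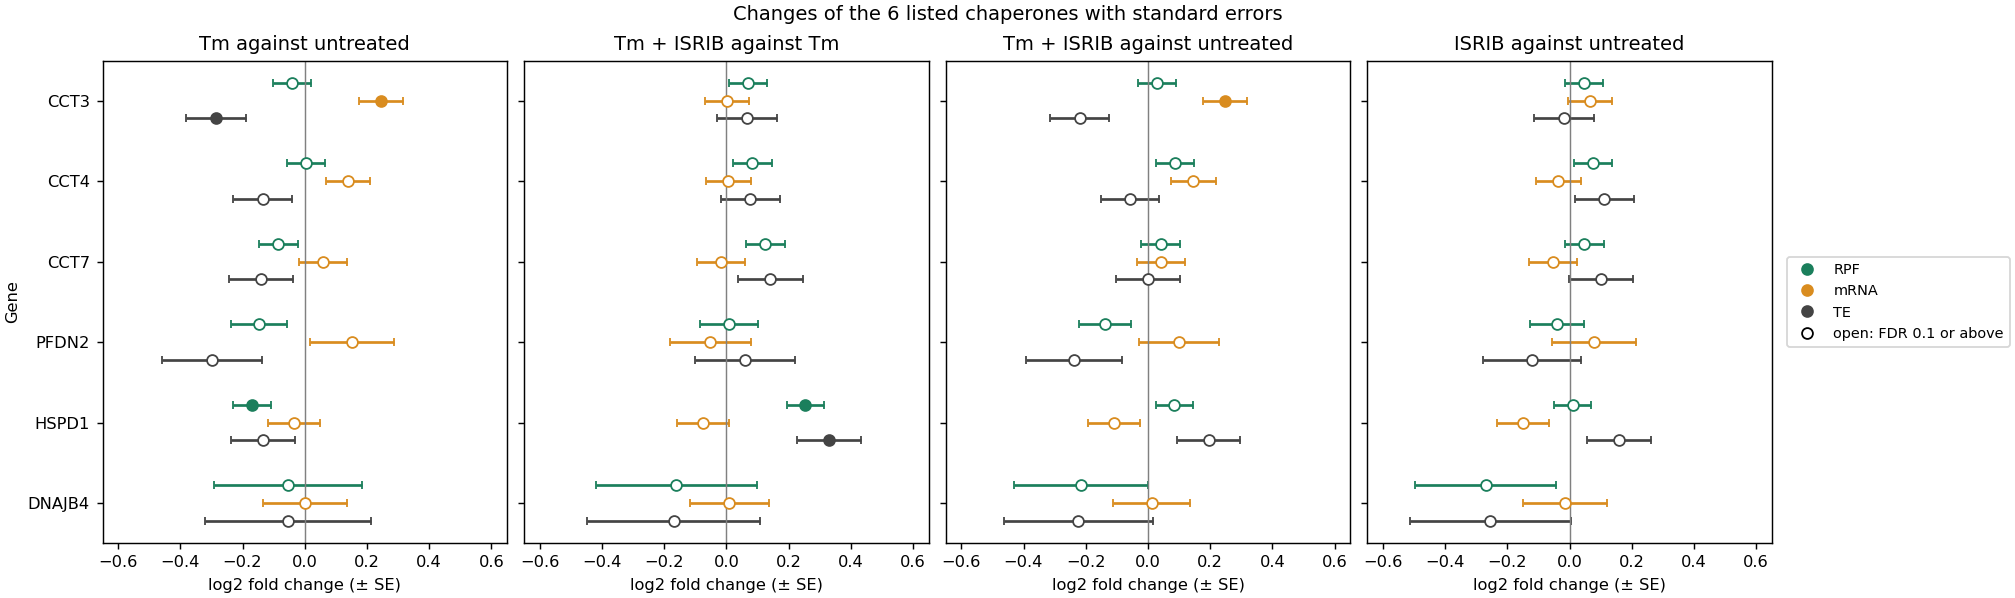
Log2 fold changes of the 6 listed chaperones in RPF, mRNA and TE for 4 comparisons, with bars of 1 SE. Filled points passed an FDR of 0.1: HSPD1 RPF, CCT3 mRNA and CCT3 TE with Tm, HSPD1 RPF and TE when ISRIB was added, and CCT3 mRNA with Tm and ISRIB against untreated cells.

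The second comparison asked what ISRIB changed in cells that also received Tm. HSPD1 footprints were higher with ISRIB, 2384 and 2300.1 CPM against 1957 and 1969.7 CPM with Tm alone. The groups did not overlap, and both libraries with ISRIB were also above both untreated libraries. The log2 fold change was 0.25 ± 0.06 SE, adjusted p = 0.00508, and 1 of 6 members was called, against 17.7% of all transcripts. It passed under all 12 alternatives tried, with estimates from 0.21 to 0.28. This comparison and the first share the Tm libraries, the shallowest of the Ribo-Seq set, and the part of that depth was not tested. The annotation holds 17 pseudogenes named after HSPD1, and 2 each after CCT4 and CCT7, and the counts of these genes are uncertain where the counting could have split reads with them.

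The CCT subunits also had higher RPF estimates with ISRIB, but none passed. CCT3 had 1504 and 1494 CPM with Tm and ISRIB, CCT4 1274 and 1301 CPM and CCT7 1437 and 1407 CPM. For all 3 subunits both of these libraries were above both Tm libraries, and the log2 fold changes were 0.07 ± 0.06 SE, adjusted p = 0.515 for CCT3, 0.08 ± 0.06 SE, adjusted p = 0.411 for CCT4 and 0.12 ± 0.06 SE, adjusted p = 0.204 for CCT7. PFDN2 had 101 and 97.4 CPM and DNAJB4 6.35 and 9.33 CPM, each overlapping its Tm libraries. The mRNA of no member was called, against 0.0% of all transcripts: edgeR called 0 of 10970 (198 at an unadjusted p under 0.05) and DESeq2 also 0 (12). Estimates for the members' mRNA lay between -0.07 and 0.01. CCT3 mRNA stayed at 1648 and 1612 CPM, and CCT4 mRNA at 1382 and 1341 CPM, so that for both genes the 4 libraries of cells given Tm lay above the 4 others. CCT7 mRNA was at 1215 and 1150.1 CPM, HSPD1 at 2769 and 2548, PFDN2 at 57.4 and 51.2 and DNAJB4 at 14.7 and 13.9.

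In TE, HSPD1 rose with ISRIB, from -0.53 and -0.49 with Tm alone to -0.22 and -0.15, a change of 0.33 ± 0.10 SE, adjusted p = 0.0851. This was 1 of 6 members called, against 6.11% of all transcripts. CCT3 had -0.13 and -0.11, CCT4 -0.12 and -0.04 and CCT7 0.24 and 0.29 with both agents, and PFDN2 0.81 and 0.93. The members other than HSPD1 gave estimates from -0.17 (DNAJB4) to 0.14 (CCT7), none past the threshold. The HSPD1 call was lost without any of the 4 lysates (adjusted p from 0.313 to 0.373; 0.647% to 1.78% of all transcripts called) and under total-count scaling (0.28, adjusted p = 0.108).

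Cells given both agents were also set against untreated cells. No member was called in RPFs, against 2.65% of all transcripts, and the estimates lay between -0.21 (DNAJB4) and 0.09 (CCT4). HSPD1 had 2384 and 2300.1 CPM with both agents and 2144 and 2271 untreated, a difference of 0.09 ± 0.06 SE, adjusted p = 0.59. PFDN2, at 101 and 97.4 CPM against 106 and 111 CPM, gave -0.14 ± 0.08 SE, adjusted p = 0.516. This comparison and that of Tm alone share the untreated libraries. CCT3 mRNA was higher (0.25 ± 0.07 SE, adjusted p = 0.0658), again 1 of 6 members called, against 14.2% of all transcripts; the call was lost without any of the 4 lysates (adjusted p from 0.179 to 0.34), in fits that called 0.0% to 3.3% of all transcripts. CCT4 mRNA gave 0.15 ± 0.07 SE, adjusted p = 0.222, and passed in a fit to these groups alone (0.15, adjusted p = 0.0719), where 26.9% of all transcripts did. In TE no member was called, against 8.96% of all transcripts. The TE estimates were -0.24 ± 0.15 SE, adjusted p = 0.397 for PFDN2, -0.22 ± 0.10 SE, adjusted p = 0.19 for CCT3 and 0.19 ± 0.10 SE, adjusted p = 0.287 for HSPD1.

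ISRIB alone left every listed member short of the threshold in RPFs, against 0.0182% of all transcripts called (2 of 10970 by edgeR, with 471 at an unadjusted p under 0.05, and 2 by DESeq2). HSPD1 had 2238 and 2207 CPM, CCT3 1528 and 1510.1 CPM, CCT4 1292 and 1262 CPM and CCT7 1406 and 1451 CPM. PFDN2 had 99.9 and 111 CPM and DNAJB4 8.65 and 6.75 CPM. The 5 members other than DNAJB4 had estimates between -0.04 and 0.08 with SEs of 0.06 to 0.09, and DNAJB4 had -0.27 ± 0.23 SE, adjusted p = 0.999. In mRNA no member was called, against 1.15% of all transcripts; CCT3 had 1500.2 and 1372 CPM, and HSPD1, 2683 and 2492 CPM, gave -0.15 ± 0.08 SE, adjusted p = 0.448. In TE no member was called, against 0.191% of all transcripts; CCT3 had 0.03 and 0.14, CCT4 0.04 and 0.14, CCT7 0.28 and 0.45 and HSPD1 -0.26 and -0.18. The TE estimates were 0.16 ± 0.10 SE, adjusted p = 0.709 for HSPD1 and 0.11 ± 0.09 SE, adjusted p = 0.785 for CCT4. Of the 6 TE estimates 3 were above 0 and 3 below. PFDN2 mRNA differed between the ISRIB replicates, 60.9 and 45.4 CPM, and so did its TE, 0.72 and 1.29.

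Whether the Tm change differed with ISRIB present was tested by an interaction term, (Tm + ISRIB against ISRIB) minus (Tm against untreated). For HSPD1 RPFs the difference was 0.24 ± 0.08 SE, adjusted p = 0.102, just short of the FDR of 0.1. No member was called, against 6.9% of all transcripts in RPFs and 1.39% in TE. Over 15 alternatives the HSPD1 difference passed in 7. It passed with DESeq2 (0.24, adjusted p = 0.0851), under total-count scaling (0.22, adjusted p = 0.0994), without the count filter (0.25, adjusted p = 0.0646), with a filter at 50 counts (0.25, adjusted p = 0.0682), with untreated replicate a left out (0.29, adjusted p = 0.0201) and with untreated replicate b left out (0.20, adjusted p = 0.0975), and with a block on the replicate letter. It did not pass with DESeq2 size factors in edgeR (adjusted p = 0.112), in the fit of Ribo-Seq alone (adjusted p = 0.107) or without any of the Tm libraries (adjusted p = 0.221 and 0.253), the Tm + ISRIB libraries (adjusted p = 0.348 and 0.152) or the ISRIB libraries (adjusted p = 0.251 and 0.287). Its TE difference was 0.17 ± 0.15 SE, adjusted p = 0.641. All 6 RPF estimates were above 0 (5 of 6 under total-count scaling), from 0.01 (CCT4) to 0.24, with a median of 0.06 against 0.01 over all transcripts.

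The readthrough transcript HSPE1-MOB4 joins the HSP10 gene with MOB4, its downstream neighbour, in 242 counted codons, so its counts cannot be assigned to HSP10 alone. HSPE1 itself has 103 annotated codons with its stop, so HSP10 codons can make up only the smaller part of those counted. It was tested among the 12242 Ribo-Seq transcripts that passed the count filter without regard to mRNA-Seq. It had 209.8 and 215 CPM in untreated cells, 256 and 254 CPM with Tm, 197 and 219 CPM with Tm and ISRIB and 222 and 193 CPM with ISRIB. Both Tm libraries lay above the other 6. Its RPFs rose with Tm (0.26 ± 0.08 SE, adjusted p = 0.0347, where 12.9% of all transcripts were called) and were lower when ISRIB was added (-0.29 ± 0.08 SE, adjusted p = 0.0171, where 17.4% were called). In the same fit HSPD1 moved in the opposite direction in both comparisons, -0.17 ± 0.06 SE, adjusted p = 0.0776 with Tm and 0.25 ± 0.06 SE, adjusted p = 0.00517 with ISRIB added. The difference between these transcripts was not tested, and the direction of HSP10 itself cannot be read from these counts. The rise with Tm was lost without either Tm library (adjusted p = 0.159 and 0.141), and the fall with ISRIB without Tm + ISRIB replicate a (adjusted p = 0.225). The interaction did not pass (-0.26 ± 0.11 SE, adjusted p = 0.215). There is no mRNA value for this transcript, and so no TE.

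**Figure D4:**
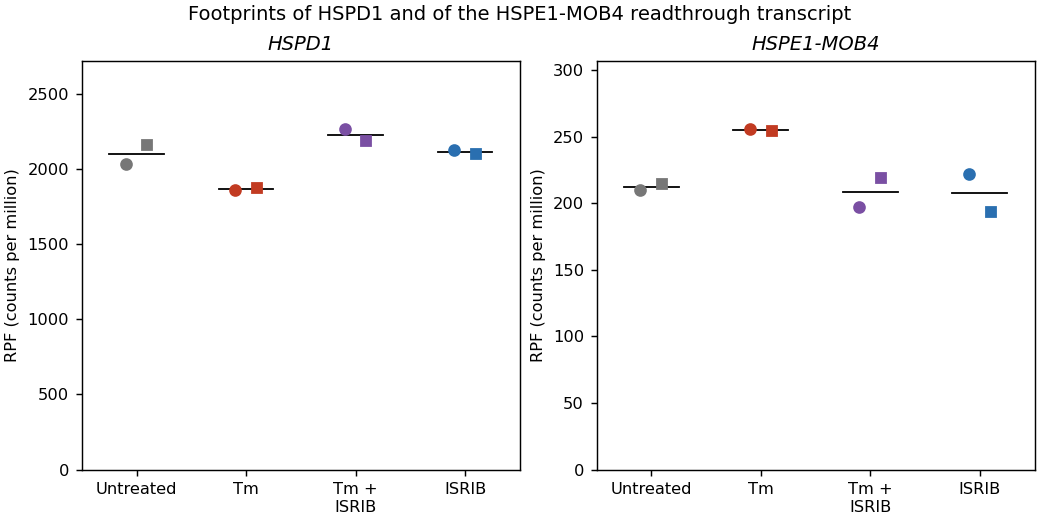
RPFs of HSPD1 and of the HSPE1-MOB4 readthrough transcript in CPM in every Ribo-Seq library, scaled over Ribo-Seq alone. Circles are replicate a, squares replicate b and lines the means of each treatment. With Tm, HSPD1 sits lowest, at 1860.4 and 1874, and HSPE1-MOB4 highest, at 256 and 254. The readthrough counts cannot be assigned to HSP10.

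Other genes tied to protein folding were counted as lists drawn from the readable symbols. The lists also hold clients of the chaperones and genes of mitochondrial import and assembly, which are not folding factors themselves. Of 35 such genes 33 were joined between the assays and 32 were tested; MOB4 was not among the symbols read and the readthrough was not joined. In RPFs 2 of 32 were called with Tm, against the 13.5% of all transcripts, and the median change was -0.01. DNAJC10, an ER-resident J-domain protein that reduces disulfide bonds, fell from 55.1 and 50.3 CPM to 45.8 and 35.0 CPM (-0.36 ± 0.12 SE, adjusted p = 0.0608). The DNAJC10 call was lost with DESeq2 (-0.36, adjusted p = 0.156) and under total-count scaling (-0.30, adjusted p = 0.117). It was also lost without Tm replicate b (-0.20) or without untreated replicate a (-0.29). PPIG, a nuclear prolyl isomerase, rose from 94.2 and 97.1 CPM to 119.5 and 143 CPM (0.45 ± 0.09 SE, adjusted p = 0.00236). DNAJC10 was the sole one of 7 J-domain proteins called, and PPIG the sole one of 7 HSP90 co-chaperones and prolyl isomerases; none of 9 cofactors and clients of CCT and prefoldin and none of 9 genes of mitochondrial import and assembly passed.

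When ISRIB was added to Tm, 3 of 32 were called in RPFs, against the 17.7% of all transcripts. DNAJC10 rose to 60.8 and 61.9 CPM (0.58 ± 0.12 SE, adjusted p = 0.00188). TOMM20, a receptor of the mitochondrial outer membrane translocase, rose from 192 and 203 to 225 and 229 CPM (0.20 ± 0.08 SE, adjusted p = 0.0861). BCS1L, an AAA protein that assembles respiratory complex III, fell from 79.3 and 70.2 to 61.3 and 60.0 CPM (-0.31 ± 0.10 SE, adjusted p = 0.046). TOMM20 and HSPD1 moved the same way in this comparison, and BCS1L the other way. No gene of these lists was called in RPFs in cells given both agents or ISRIB alone, each against untreated cells.

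In mRNA, 6 of 32 were called with Tm, against the 11.0% of all transcripts. HDAC1, a histone deacetylase, rose from 291 and 283 to 363 and 375 CPM (0.36 ± 0.08 SE, adjusted p = 0.0413). TIMM17A, a subunit of the inner membrane translocase, also rose (0.40 ± 0.10 SE, adjusted p = 0.0566), as did ACTA1, an actin (0.57 ± 0.17 SE, adjusted p = 0.0873). ACTR2, a subunit of the Arp2/3 complex, fell (-0.29 ± 0.08 SE, adjusted p = 0.0681), as did VHL, a tumour suppressor and CCT client (-0.38 ± 0.09 SE, adjusted p = 0.0555), and DNAJC11, a mitochondrial J-domain protein (-0.25 ± 0.07 SE, adjusted p = 0.0848). The same 6 genes and TOMM20 (0.21 ± 0.07 SE, adjusted p = 0.0857) were called in cells given both agents against untreated cells, 7 of 32 against the 14.2% of all transcripts. VHL mRNA was also lower with ISRIB alone (-0.43 ± 0.09 SE, adjusted p = 0.0958), at 45.2 and 41.2 CPM against 53.4 and 63.3 CPM untreated, 1 of 32 called against the 1.15% of all transcripts. This call was lost in a fit to these groups alone (adjusted p = 0.399), without untreated replicate a (adjusted p = 0.105) and without untreated replicate b (-0.30, adjusted p = 0.771).

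In TE, 4 of 32 were called with Tm, against the 15.9% of all transcripts. ACTA1 (-0.75 ± 0.18 SE, adjusted p = 0.012) and HDAC1 (-0.42 ± 0.10 SE, adjusted p = 0.0157) fell, as CCT3 did, while ACTR2 (0.34 ± 0.11 SE, adjusted p = 0.0559) and DNAJC11 (0.38 ± 0.13 SE, adjusted p = 0.0636) rose. HDAC1 footprints were 404 and 406 CPM untreated and 395 and 384 CPM with Tm, and did not pass. ACTA1 had 198 and 209.8 CPM of footprints but 11.0 and 7.91 CPM of mRNA in untreated cells; the coding sequences of the actins are nearly identical, so its counts are uncertain where reads are shared between them. When ISRIB was added to Tm, 1 of 32 was called, against the 6.11% of all transcripts: DNAJC10 (0.57 ± 0.13 SE, adjusted p = 0.0251). With both agents against untreated cells 3 of 32 were called, against the 8.96% of all transcripts: ACTA1 (-0.53 ± 0.17 SE, adjusted p = 0.0726), ACTR2 (0.33 ± 0.11 SE, adjusted p = 0.0858) and VHL (0.56 ± 0.14 SE, adjusted p = 0.0295). Over the alternatives, DNAJC10 RPFs passed in 8 of 12 with Tm and in 12 of 12 for ISRIB added, PPIG in 11 of 12, TOMM20 in 5 of 12 and BCS1L in 8 of 12. The mRNA calls with Tm passed in 5 of 11 (ACTA1) to 8 of 11 (VHL) and the TE calls with Tm in 8 of 12 (ACTR2) to 10 of 12 (HDAC1 and ACTA1). With both agents against untreated cells the mRNA calls passed in 5 of 11 (TOMM20, lost with DESeq2 and total-count scaling among others) to 8 of 11 (VHL and DNAJC11), and the TE calls in 8 of 12 (ACTR2), 9 of 12 (ACTA1) and 10 of 12 (VHL); DNAJC10 TE for ISRIB added passed in 9 of 12. Without untreated replicate b the ACTA1 estimates were 0.36, adjusted p = 0.37 in mRNA and -0.49, adjusted p = 0.169 in TE with Tm, and 0.28, adjusted p = 0.441 in mRNA and -0.28, adjusted p = 0.526 in TE with both agents. Without Tm replicate a its TE estimate with Tm was -0.50, adjusted p = 0.226.

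The genes whose RPF profile was most like the mean of the 6 members over the 8 Ribo-Seq libraries, by Pearson's r of centred log2 CPM among the 1846 tested transcripts with a symbol, were SH3RF3 (r = 0.94), MAP7D1 (r = 0.90) and UBE2E3 (r = 0.89). SH3RF3 had few footprints, with means of 6.20 CPM untreated and 2.96 CPM with Tm. The mean profile gave each member equal weight, including DNAJB4 with its 27 to 96 raw counts per library. The members did not share a single profile: the correlation of each with the mean of the other 5 was between -0.51 (DNAJB4) and 0.32 (CCT3). These correlations are descriptions over libraries that share their treatments and scaling.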

How the data were processed

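Ribo-Seq and mRNA-Seq were made from the same lysates, each split between the assays, 2 per treatment. The authors deposited, per library, raw read counts per transcript over the coding sequence; the submitters' processing notes name CASAVA 1.8, Bowtie 1.0.0, TopHat2 2.0.7 and 2.0.10 and hg19, and the counter is not given in the sources used here. Transcripts were joined by identifier without version and with equal codon numbers (19044), and symbols, of which 1998 were readable, came from the source table of the study. Transcripts with too few counts (filterByExpr, minimum count 10 in each assay) were left out. Counts were scaled by TMM within each assay and tested with edgeR 4.0.16 (glmQLFit, glmQLFTest; R 4.3.3), RPF and mRNA each over its 8 libraries and TE as an interaction over all 16, with Benjamini-Hochberg adjustment over 10970 transcripts and an FDR of 0.1; HSPE1-MOB4 was tested on Ribo-Seq alone, a choice made after the data were seen. SEs are the size of the log2 fold change divided by the root of the F statistic. Per-gene values are CPM, and their precision is limited by counting error and by n = 2. p-values rest on a spread between lysates of the same treatment. This spread is estimated over all 4 treatments together, from 8 libraries for RPF or mRNA and 16 for TE. The study describes the 2 lysates of a treatment as biological replicates.

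The scripts were tested on simulated data. Named genes were the 7 members, the genes of the other lists past the FDR and the 3 transcripts most alike in RPF profile. Members and lists were chosen with earlier results of these data known. Single member changes are printed for most but not all estimates that exceed their SE. The others are given as ranges or as library values. Alternatives were DESeq2 1.42.0, total-count scaling, DESeq2 size factors, no filter, a filter at 50 counts, a replicate block, fits to the compared groups only and leaving out each lysate; a fit of TE with the lysate as a block uses the split of each lysate that the methods describe (correlation of its Ribo-Seq and mRNA-Seq deviations from -0.06 to 0.05).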

Additional observations from a re-analysis of the deposited data

Results flagged for a closer look

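The RPF change of DNAJC10 with Tm differed between cells with and without ISRIB by the interaction term, 0.53 ± 0.16 SE, adjusted p = 0.0632 by edgeR's quasi-likelihood test. DNAJC10 had 55.1 and 50.3 CPM untreated, 45.8 and 35.0 with Tm, 60.8 and 61.9 with Tm and ISRIB and 56.0 and 52.8 with ISRIB. It was 1 of 32 genes of these lists called, against 6.9% of all transcripts. Over 15 alternatives the estimate lay between 0.37 and 0.76 and 8 of 15 passed. It did not pass with DESeq2 (0.53, adjusted p = 0.124), and the other alternatives that did not pass each left out a lysate. Without Tm replicate b the estimate was 0.37. In TE the interaction of DNAJC10 did not pass (0.46 ± 0.18 SE, adjusted p = 0.261). Tm replicate b, with 107 raw counts, was the lowest library and also the shallowest; the part of depth was not tested.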

How the results depend on the processing

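The number of members called changed in 11 of 106 alternative fits other than leaving out a lysate, and in 21 of 64 fits that left one out. Fits to the compared groups alone called 0 members in RPFs with Tm (11.0% of all transcripts), 2 in mRNA with Tm (28.8%) and 2 in mRNA with both agents against untreated cells (26.9%); the 2 were CCT3 and CCT4. Total-count scaling called 0 in RPFs with Tm, 0 in TE with Tm and 0 in TE for ISRIB added to Tm, and 1 (HSPD1) in the RPF interaction, as did DESeq2 (1), no filter (1), the filter at 50 counts (1) and the replicate block (1). With one lysate left out, the calls ranged from 0 to 1 in RPFs with Tm and from 0 to 1 in the RPF interaction, and were 0 in mRNA with Tm (where 0.0% to 1.93% of all transcripts were called, none in 3 of the 4 fits), in mRNA with both agents (0.0% to 3.3%), in TE with Tm (4.78% to 9.4%) and in TE for ISRIB added to Tm (0.647% to 1.78%); these counts of 0 say little of the members. HSPD1 RPFs for ISRIB added to Tm passed in every alternative. Where a lysate is left out, the lone library of its group is assumed to vary like the others. DESeq2 gave no adjusted p for ACTA1 mRNA with both agents, which is left out of its alternatives. The causes were not tested.

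Whether the letters a and b mark a shared batch is not given in the sources used here. Libraries of the same letter had deviations from their treatment means that correlated between -0.05 and 0.12 in Ribo-Seq and between -0.20 and 0.44 in mRNA-Seq. A replicate block on the letter gave the HSPD1 interaction 0.24, adjusted p = 0.0899 and changed no other count of members called. With the lysate as block, CCT3 TE with Tm was -0.29, adjusted p = 0.0949, and HSPD1 TE for ISRIB added to Tm 0.33, adjusted p = 0.0997, and no call of a member changed.

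Over all transcripts, the calls across alternatives ranged in RPFs from 637 to 1608 (1485 in the chosen fit) with Tm, 772 to 2209 (1945 in the chosen fit) for ISRIB added, 18 to 692 (291 in the chosen fit) for both agents, 0 to 37 (2 in the chosen fit) for ISRIB alone and 222 to 1176 (757 in the chosen fit) for the interaction. In mRNA they ranged from 0 to 3162 (1209 in the chosen fit) with Tm, 0 to 2 (0 in the chosen fit) for ISRIB added, 0 to 2952 (1558 in the chosen fit) for both agents and 0 to 905 (126 in the chosen fit) for ISRIB alone. In TE they ranged from 524 to 2260 (1746 in the chosen fit), 71 to 1028 (670 in the chosen fit), 83 to 1327 (983 in the chosen fit), 0 to 138 (21 in the chosen fit) and 2 to 437 (153 in the chosen fit) in the order used for RPFs. At 27 to 96 raw footprints per library, DNAJB4 is limited by depth.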
